A study of Rattus norvegicus with 6 samples.

Results

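The genes described here make, restrain and read the nitric oxide signal that is carried by cyclic GMP. They are defined by a list of 10 gene names, drawn up with earlier results of these data known, namely the synthases Nos1 and Nos3, the dimethylarginine hydrolases Ddah1 and Ddah2, the arginase Arg2, the guanylyl cyclase subunits Gucy1a1 and Gucy1b1, the phosphodiesterase Pde5a and the kinases Prkg1 and Prkg2. Every probe set with exactly 1 platform symbol in that list was taken, which gave 11 probe sets for 9 genes out of the 14217 named genes on the array. Prkg1 was not analysed here, because no probe set carried its name alone. Of the 9 genes, 6 passed the filter on low signals (mean log2 signal above the median of all probe sets), whereas Nos1, Pde5a and Prkg2 lay below it.

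Kidney RNA of adult male rats was hybridised to 6 Affymetrix arrays, 1 per rat. The S group held 3 inbred Dahl salt-sensitive (SS/Jr) rats, a strain known for salt-induced high blood pressure. The congenic group held 3 S.LEW rats (congenic interval D1MCO4x1x3Bx1), in which a chromosome 1 segment of the normotensive Lewis rat replaces that of S. By design both groups share the S background elsewhere, but no genotypes were examined here to check this. The sources used here give no diet, blood pressure or age in weeks, and 1 congenic strain stands for the segment. All values are GCOS 1.4 signals scaled to 1 common trimmed mean (500.2 per array), so they measure transcript signal relative to the rest of the array. Because whole tissue was used, fewer cells of a type and less RNA per cell cannot be told apart. Of 8 tubule and glomerulus markers, 7 had a named probe set and all 7 passed the filter, with Umod, the uromodulin gene, at 24420 to 37749 over the 6 rats. At unadjusted p under 0.05 in limma, a level that 10.3% of all tested probe sets reached, there were 2 of 7 tubule and glomerulus markers (1 higher and 1 lower in congenic kidneys), 1 of 9 endothelial (higher), 2 of 8 smooth muscle (lower), 1 of 3 macula densa (lower), 2 of 3 erythrocyte (lower) and 2 of 6 macrophage markers (higher), and 0 of 4 adrenal and 0 of 4 adipocyte markers. None of these markers passed the adjusted threshold.

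Nitric oxide is made from arginine by nitric oxide synthases and diffuses to soluble guanylyl cyclase, a heterodimer of an alpha and a beta subunit that turns GTP into cyclic GMP. Cyclic GMP then activates cyclic GMP-dependent protein kinases until phosphodiesterases degrade it. In the kidney this pathway is known for relaxing afferent vessels, for a role of neuronal nitric oxide synthase in the macula densa and for promoting sodium excretion. Arginases compete with the synthases for arginine, and dimethylarginine hydrolases degrade asymmetric dimethylarginine, an endogenous inhibitor of the synthases.

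No member passed the adjusted threshold. In limma with Benjamini-Hochberg adjustment at 0.05, 0 of 9 members were called (smallest adjusted p = 0.472, Ddah1), as were 0.0% of the 15521 probe sets tested. At unadjusted p under 0.05 there was 1 of 9, Ddah1, or 11.1%. Of the probe sets tested, 10.3% reached that level, 4.72% with higher congenic signal, and so did 7.92% of all 31042 probe sets when those below the filter were included, so the members' share was near the background. In 1 of 9 genes, Ddah2, the 3 congenic values all lay above the 3 S values, and in 0 of 9 all below, against 7.98% and 7.99% of tested probe sets (12.5% in either direction over all probe sets). Congenic means were nominally higher in 5 genes and lower in 4, and the median log2 difference (congenic minus S) was 0.09, beside -0.00869 over all tested probe sets. Signals of different probe sets depend on their probes, so genes are compared between strains and not with each other.

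The stretches upstream of 3 members are given first, since the results below turn on Ddah1 and on the 2 cyclase subunits. RefSeq's promoter table (assembly GRCr8) held 7 of the 10 genes, and the 250 bases before each annotated start are shown 5′ to 3′. Capitals mark a GC box (GGGCGG or its complement CCGCCC) or a CCAAT box (CCAAT or ATTGG).
Ddah1 (chr2:237327562-237327811, plus strand): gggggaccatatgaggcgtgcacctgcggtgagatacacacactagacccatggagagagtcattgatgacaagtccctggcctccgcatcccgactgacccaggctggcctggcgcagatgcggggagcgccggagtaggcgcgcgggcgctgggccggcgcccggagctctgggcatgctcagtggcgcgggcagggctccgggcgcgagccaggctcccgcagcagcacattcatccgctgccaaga
Gucy1a1 (chr2:169779624-169779873, minus strand): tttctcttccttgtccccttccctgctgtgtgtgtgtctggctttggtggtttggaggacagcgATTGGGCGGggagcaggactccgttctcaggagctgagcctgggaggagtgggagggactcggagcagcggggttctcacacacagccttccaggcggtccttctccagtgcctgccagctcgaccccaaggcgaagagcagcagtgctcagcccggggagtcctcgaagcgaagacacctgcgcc
Gucy1b1 (chr2:169696988-169697237, minus strand): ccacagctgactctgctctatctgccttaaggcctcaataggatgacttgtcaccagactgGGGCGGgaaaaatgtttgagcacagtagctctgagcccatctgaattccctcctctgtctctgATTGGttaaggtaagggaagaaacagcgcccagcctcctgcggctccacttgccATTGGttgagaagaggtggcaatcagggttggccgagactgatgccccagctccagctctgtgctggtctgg
In the gene table Gucy1a1 and Gucy1b1 are immediate neighbours in the order of protein-coding genes. Both upstream stretches held 1 GC box, and a CCAAT box occurred once in Gucy1a1, where it overlaps the GC box, and in 2 places in Gucy1b1. The Ddah1 stretch held neither motif, at 68.8% G and C against 63.2% in Gucy1a1, 54.8% in Gucy1b1 and a median of 51.2% over 33469 promoters. A GC box occurred in 5 of the 7 members and in 30.5% of all promoters, and a CCAAT box in 2 of the 7 and in 34.0%. The stretches of the 7 had a median of 62.4% G and C, so these shares compare stretches of unlike G and C content. A TATA box (TATAAA) was found in 0 of the 7 and in 12.9% of all promoters, and the clock-type E-box CACGTG in 0 of the 7 and in 5.59%. Such matches describe the letters in this window only. Of the members, Prkg1 alone lies on chromosome 1, with 2652 protein-coding genes between it and Adamts16, the gene named in the series title.

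Among the enzymes that protect nitric oxide synthesis, both dimethylarginine hydrolases had higher congenic means. Ddah1, the hydrolase abundant in renal tubules, read 14334, 11273 and 13487 in the S rats and 14254, 15350 and 15061 in the congenic rats. The groups overlapped, because S replicate 1 lay just above congenic replicate 1, and S replicate 2 was the lowest of the 6. Means were 13031 ± 1581 (SD, n = 3) in S and 14888 ± 568 in congenic kidneys, which is 1.15-fold. On the log2 scale this was 0.20 with a 95% interval of 0.01 to 0.39 (limma unadjusted p = 0.0450, adjusted p = 0.472), and the 2-sided exact permutation test gave p = 0.2. With the S replicate 2 array left out the log2 difference was 0.10 (limma unadjusted p = 0.262), and leaving out S replicate 3 (0.0522), congenic replicate 2 (0.124) or congenic replicate 3 (0.101) also moved the unadjusted p above 0.05. It was 0.0785 under quantile normalisation, 0.137 under cyclic loess, 0.109 in the unfiltered fit, 0.138 with no variance trend and 0.115 with the title number as a block.

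Ddah2, the related gene, read 558, 559 and 590 in the S rats and 612, 680 and 622 in the congenic rats. Every congenic value exceeded every S value. The fold was 1.12 with a 95% interval of 0.935 to 1.34 (log2 difference 0.16, standard error 0.12, limma adjusted p = 0.665), and the exact permutation test gave p = 0.1, the smallest that 3 against 3 allows. The interval of the fold spans 1, so a difference was not resolved. Both hydrolase genes kept a positive log2 difference under each of the 15 alternatives run, from 0.10 to 0.27 for Ddah1 and from 0.12 to 0.23 for Ddah2. The lower floor, the unfiltered fit and the fit with no variance trend are among these and cannot change the difference of either gene. Arg2, the mitochondrial arginase, read 858, 759 and 822 in S and 915, 854 and 882 in congenic rats. S replicate 1 lay just above congenic replicate 2, so the groups overlapped, and the fold was 1.09 (95% interval 0.926 to 1.28, limma adjusted p = 0.726).

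The member synthases, Nos1 and Nos3, were measured near or below the middle of the signal range. Nos2, a further synthase that was placed in the list of synthase partners, lay below the filter with overlapping groups. Its log2 difference was -0.73 (limma adjusted p = 0.853). Nos3, the endothelial synthase, read 178, 149 and 236 in S and 184, 136 and 147 in congenic rats. The groups overlapped over most of their range, with S replicate 3 the highest, and the fold was 0.839 with a 95% interval of 0.580 to 1.21 (limma adjusted p = 0.754). Without S replicate 3 the log2 difference of -0.25 became -0.07. Of 10 endothelial markers, 9 were measured, 4 nominally higher and 5 lower in congenic kidneys, none below the filter, with Vwf higher by 0.63 on the log2 scale (limma adjusted p = 0.305), and their summed signal was 10232 to 10848 in S and 10261 to 10324 in congenic rats. Nos1, the neuronal synthase, read 55.9, 85.1 and 60.4 in S and 83.4, 114 and 46.7 in congenic rats. The congenic values enclosed the S values, and the fold was 1.16 with a 95% interval of 0.552 to 2.42 (limma adjusted p = 0.918). Of 4 macula densa and juxtaglomerular markers, 3 were measured and all 3 were nominally lower. Ptgs2 was lower by 0.93 on the log2 scale (limma adjusted p = 0.21), with a mean of 297 in S and 154 in congenic rats. Pappa2, below the filter, and Avpr1a had log2 differences of -0.12 and -0.08 with overlapping groups. The summed signal was 526 to 635 in S and 418 to 453 in congenic rats, a change that came mainly from Ptgs2. The part of these markers in the Nos1 and Nos3 values was not tested.

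**Figure D1:**
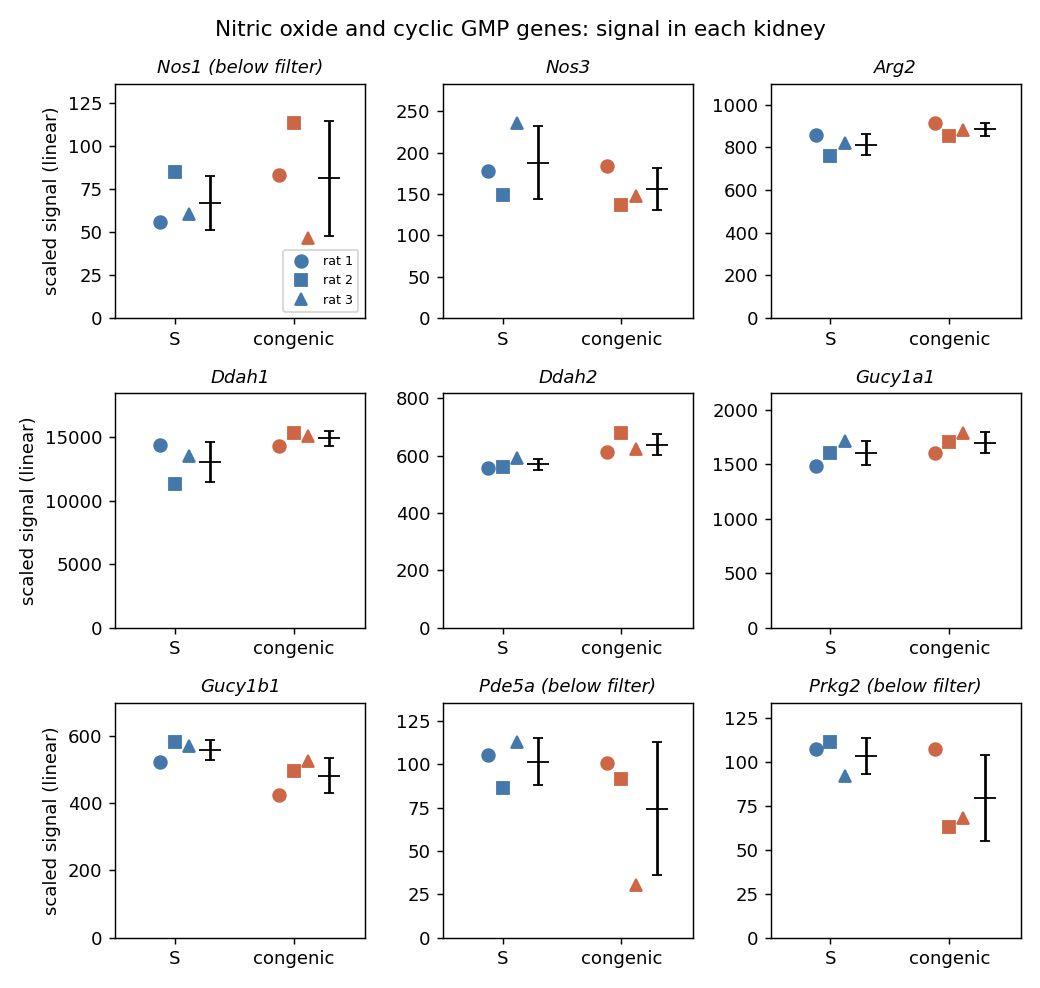
Scaled signal (linear axis from 0) of the main probe set of 9 genes in each kidney. Points are single rats, with the same marker shape for replicates of the same number, which are not paired, and black bars give mean ± SD over 3 rats. Only Ddah2 shows groups that do not overlap, and congenic replicate 3 of Pde5a stands at 30.3 against 91.8 and 101 in the other congenic rats.

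The receptor of the signal, soluble guanylyl cyclase, gave the only 1 of 3 pairs of related genes whose main probe set ratios did not overlap between strains. Neither gene passed the adjusted threshold. Their ratio did not pass either (exact permutation p = 0.3 after adjustment), as its test cannot give p under 0.1 here. No share of separated ratios over other gene pairs was computed, so the 1 of 3 has no background beside it. Of all probe sets taken singly, 12.5% had groups that did not overlap, in either direction. Gucy1a1, the alpha subunit, read 1486, 1601 and 1708 in S and 1599, 1702 and 1789 in congenic rats. The ranges overlapped widely, and the fold was 1.06 with a 95% interval of 0.924 to 1.22 (limma adjusted p = 0.778). Gucy1b1, the beta subunit, read 524, 581 and 571 in S and 426, 497 and 525 in congenic rats. Here the groups touched, as congenic replicate 3 lay just above S replicate 1, and the fold was 0.862 with a 95% interval of 0.703 to 1.06 (log2 difference -0.21, limma adjusted p = 0.609).

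Within each kidney, the Gucy1a1 signal divided by the Gucy1b1 signal was 2.84, 2.75 and 2.99 in S and 3.75, 3.43 and 3.41 in congenic rats. Every congenic ratio was above every S ratio. The ratio carries the brightness of both probe sets and so gives no subunit stoichiometry, but its change between strains does not depend on array scaling. That change was a fold of 1.23, or 0.30 on the log2 scale (standard error 0.06, 95% interval 0.14 to 0.46). The 2-sided exact permutation test gave p = 0.1, its smallest possible value here, and 0.3 after Benjamini-Hochberg adjustment over the 3 pairs compared. The difference lay between 0.26 and 0.33 with any 1 array left out and was 0.25 under quantile normalisation and 0.26 under cyclic loess.

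The second probe sets of these genes did not show it. That of Gucy1a1 read 376, 491 and 431 in S and 420, 386 and 394 in congenic rats, and that of Gucy1b1 read 353, 561 and 577 in S and 463, 492 and 437 in congenic rats. S replicate 1 was the lowest array for both, and all S and congenic ranges overlapped. Their log2 differences were -0.10 and -0.07 (limma adjusted p = 0.841 and 0.922). For the 2 second probe sets together, the log2 ratio of alpha to beta differed by -0.04 between strains, and for the means over both probe sets of each gene by 0.13 with overlapping groups (exact permutation p = 0.2). Pairing the main probe set of either gene with the second of the other gave 0.15 and 0.11, again with overlap; these combinations were chosen after the values were seen. The unequal change thus rested on the main probe set of each gene, which was chosen by mean signal. For Gucy1b1 this choice was close, with means of 558 (main) and 497 (second) in S and 483 and 464 in congenic rats. The main probe set of Gucy1b1 has a suffix (_s_at) by which Affymetrix marks probe sets that can match several transcripts.

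**Figure D2:**
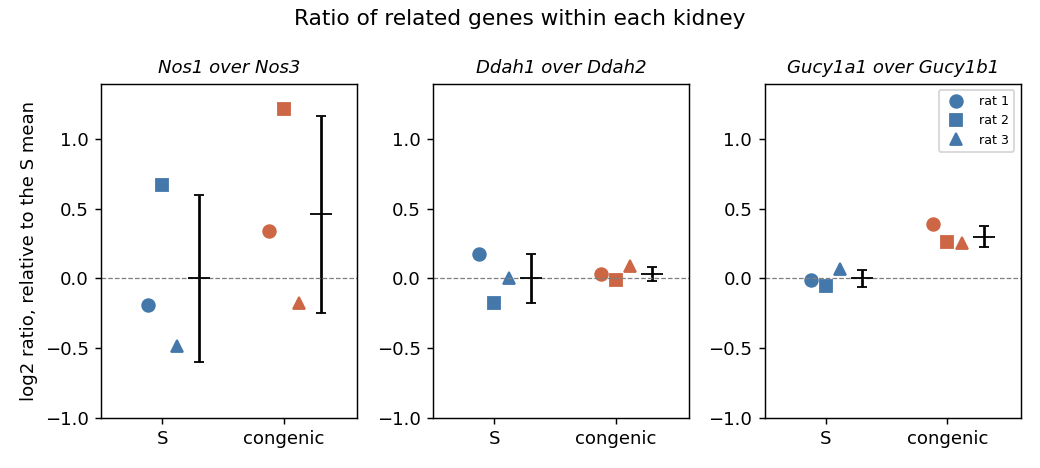
Log2 ratio of related genes within each kidney, shown relative to the S mean of that ratio, with points for single rats and bars for mean ± SD over 3 rats. For Gucy1a1 over Gucy1b1 the congenic rats lie 0.30 higher on average with no overlap, whereas the groups overlap for Ddah1 over Ddah2 and for Nos1 over Nos3.

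The other pairs of related genes gave no such separation. The Ddah1 to Ddah2 log2 ratio was 4.51 ± 0.17 (SD) in S and 4.55 ± 0.05 in congenic kidneys, a difference of 0.04 with a 95% interval of -0.26 to 0.33, which turned to -0.05 under quantile normalisation and to -0.06 under cyclic loess (exact permutation p = 0.8 as deposited). Unequal change of the 2 hydrolase genes was therefore not resolved. The Nos1 to Nos3 log2 ratio differed by 0.46 with a 95% interval of -1.03 to 1.95 (exact permutation p = 0.5). The Prkg1 to Prkg2 ratio was planned but could not be formed.

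Downstream of the cyclase, both measured genes lay below the filter. Pde5a, which degrades cyclic GMP and is the target of sildenafil, read 105, 86.6 and 113 in S and 101, 91.8 and 30.3 in congenic rats. Congenic replicate 3 stood far below the other 5 rats, whose values intermingled. The fold was 0.649 with a 95% interval of 0.258 to 1.63 (limma adjusted p = 0.78), and without congenic replicate 3 the log2 difference of -0.62 became -0.07. Prkg2, the membrane-bound cyclic GMP-dependent kinase, read 107, 111 and 92.0 in S and 107, 62.9 and 68.1 in congenic rats. Congenic replicate 1 lay among the S rats and the other congenic rats below them, for a fold of 0.748 with a 95% interval of 0.439 to 1.28 (limma adjusted p = 0.763). Without congenic replicate 1 its log2 difference of -0.42 was -0.66, and without congenic replicate 2 it was -0.27. Smooth muscle is known to express soluble guanylyl cyclase and Pde5a strongly. Of 8 smooth muscle markers, 5 were nominally lower and 3 higher, with a summed signal of 3636 to 4651 in S and 3510 to 3939 in congenic rats. Of the 5 that passed the filter 4 were negative, and Acta2 (-0.36, unadjusted p = 0.0126) and Smtn (-0.32, unadjusted p = 0.0438) were lower at unadjusted p under 0.05 in limma. Their part in the values of these genes was not tested.

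**Figure D3:**
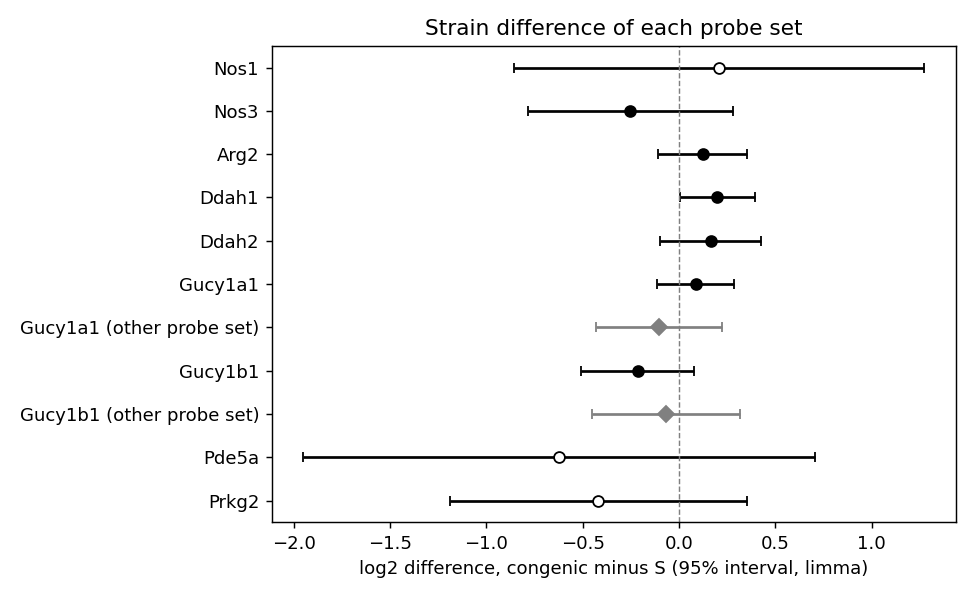
Log2 difference (congenic minus S) of each of the 11 probe sets with its 95% interval from limma. Filled circles are main probe sets that passed the filter, open circles those below it, and grey diamonds the second probe sets. Only the Ddah1 interval lies above 0, starting at 0.01, and the widest, that of Pde5a, runs from -1.95 to 0.70.

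The precision differed widely among the members. For Ddah1, Ddah2, Gucy1a1 and Arg2 the 95% intervals of the log2 difference ended between 0.29 and 0.42 at the upper side and between -0.11 and 0.01 at the lower side. For Nos1 the interval ran from -0.86 to 1.27, and for Pde5a from -1.95 to 0.70. Standard errors of the log2 difference ran from 0.09 for Ddah1 to 0.53 for Pde5a, where the median over all tested probe sets was 0.14.

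The other genes of the pathway were read in the same fit. Of 72 further genes in 7 role lists, 64 had a named probe set and 44 passed the filter. No gene passed the adjusted threshold (smallest adjusted p = 0.313), and 5 of 64, or 7.81%, reached unadjusted p under 0.05 in limma, 4 higher and 1 lower, beside 7.92% of all probe sets and 10.3% of those tested, so that this share too was near the background. Differences were positive in 32 and negative in 32 genes, with a median log2 difference of 0.00475. The groups did not overlap for 13 of 64 genes (20.3%), 9 higher and 4 lower, beside 12.5% of all probe sets and, of those tested, 7.98% higher and 7.99% lower.

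By role, 1 of 12 measured genes of arginine and tetrahydrobiopterin supply reached unadjusted p under 0.05. This was Asl, argininosuccinate lyase, which forms arginine: it read 2531, 3086 and 2941 in S and 3181, 3416 and 3399 in congenic rats. The congenic values all lay above the S values, for a log2 difference of 0.23 (limma adjusted p = 0.404), and its second probe set also gave 0.23. The difference was 0.14 without S replicate 1 (limma unadjusted p = 0.125), and the unadjusted p was 0.069 without congenic replicate 2, 0.0663 without congenic replicate 3 and 0.0793 with no variance trend. Ass1, the enzyme before it in arginine synthesis, had 0.08. Of the 5 genes of nitric oxide removal and cyclase redox partners, all 5 were positive, from 0.01 for Adh5 to 0.22, where 48.2% of all tested probe sets were positive. Only 1 reached unadjusted p under 0.05: Cyb5r3, a reductase that can keep the cyclase haem in its reduced form. It read 3083, 2796 and 2843 in S and 3353, 3276 and 3530 in congenic rats, without overlap (log2 difference 0.22, limma adjusted p = 0.377), and its unadjusted p rose to 0.0536 when S replicate 2 was left out, to 0.0658 when congenic replicate 3 was, and to 0.0594 with no variance trend.

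Among 11 measured cyclases and peptide genes, 2 reached unadjusted p under 0.05 in opposite directions, and 7 lay below the filter. Gucy1b2, a further beta-type cyclase subunit known from kidney, read 216, 242 and 240 in S and 296, 315 and 301 in congenic rats. All congenic values were higher, for a log2 difference of 0.39 (limma adjusted p = 0.472), so the 2 beta-type genes had opposite nominal signs. Its unadjusted p was above 0.05 with any 1 array left out (0.0622 to 0.109) and with the title number as a block (0.0513). Npr2, the receptor cyclase for C-type natriuretic peptide, read 440, 290 and 368 in S and 276, 287 and 237 in congenic rats, a log2 difference of -0.44 (limma adjusted p = 0.45). Without S replicate 1 it was -0.30 (limma unadjusted p = 0.168), and the unadjusted p was also above 0.05 without S replicate 3 (0.0775) or congenic replicate 3 (0.104), in the unfiltered fit (0.0532) and under quantile normalisation (0.0523), median centring (0.0673) or cyclic loess (0.0567). Of 11 measured phosphodiesterases and efflux pumps, 1 reached unadjusted p under 0.05: Abcc4, a pump that exports cyclic nucleotides. It read 1648, 1397 and 1475 in S and 1804, 1979 and 1743 in congenic rats, without overlap (log2 difference 0.29, limma adjusted p = 0.313), and its unadjusted p stayed under 0.05 in the 15 alternatives run.

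The remaining role lists held 0 genes at unadjusted p under 0.05. Among 7 synthase partners the smallest p was that of Akt1, the kinase that phosphorylates the endothelial synthase. Its main probe set gave -0.17 without overlap of the strains (limma adjusted p = 0.544). Of its 2 other probe sets, the one that passed the filter gave -0.33, also without overlap (limma unadjusted p = 0.024, adjusted p = 0.407). The one below the filter gave 0.56 with overlap. Among 5 genes of dimethylarginine formation and disposal it was that of Prmt3, an arginine methyltransferase, at 0.36 (limma adjusted p = 0.621), which was 0.17 without S replicate 3 and 0.55 without congenic replicate 2. Among 13 cyclic GMP kinase targets, 9 were negative and 4 positive. The smallest p was that of the transcription factor gene Creb1 at -0.31 (limma adjusted p = 0.527). It was -0.17 without congenic replicate 1 and -0.46 without S replicate 1 or congenic replicate 2, both of the latter at unadjusted p under 0.05 in limma. Its other probe set that passed the filter gave -0.00813 (limma unadjusted p = 0.967), and those below the filter gave -0.55 and -0.20.

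**Figure D4:**
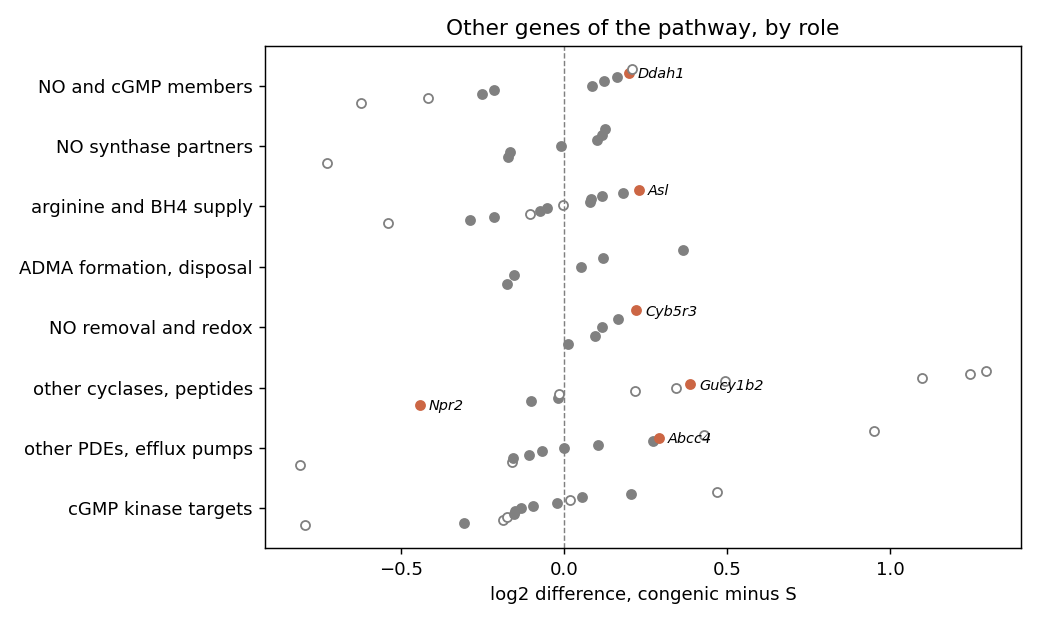
Log2 difference (congenic minus S) of the 9 members and of the 64 other measured pathway genes, one row per role list, offset vertically for legibility. Orange points with a name have unadjusted p under 0.05 in limma, none of which passed after adjustment, and open points lay below the filter. Points lie on both sides of 0 in all rows except nitric oxide removal and redox, where 5 of 5 are positive, from 0.01 to 0.22.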

How the data were processed

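Array signals were analysed for 6 rat kidneys, 3 S and 3 congenic, grouped by the sample titles. The authors deposited linear probe set intensities from GCOS 1.4 (named in the submitters' processing notes). The sources used here give neither its settings nor its detection calls. Array medians were 162 to 178. From 31099 probe sets, 57 array controls were left out. Signals under the 10th percentile of the table (12.3) were set to it before log2; no member value lay under this floor. The 15521 probe sets with mean log2 above the median were fitted with limma 3.58.1 in R 4.3.3 (lmFit, eBayes with an intensity trend, Benjamini-Hochberg adjustment at 0.05). A gene below this filter was taken from the same fit over all 31042 probe sets.

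Platform symbols were updated through Entrez identifiers in the GRCr8 gene table: 20826 probe sets had 1 symbol, 436 several and 9780 none. A gene's main probe set is the one with the highest mean over the 6 arrays. Members and role lists were chosen with earlier results of these data known. Named besides the members are pathway genes with unadjusted p under 0.05 and, in lists without one, the gene of smallest p. Ass1 and Nos2 were added after their values were seen. Each rat is 1 array, and the number of arrays limits the precision. Single values and log2 ratios of related genes were compared by 2-sided exact permutation tests over the 6 rats, and intervals of ratios use the pooled SD. Alternatives covered the floor (1), a pseudocount (16), the filter, normalisation, variance model, array weights, a block for title numbers of 10 or more, probe set choice and each array left out. The fit was tested on simulated data. Figures were drawn with matplotlib 3.10.9.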

Additional observations from a re-analysis of the deposited data

How the results depend on the processing

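Of 390 recomputed values for 26 results, 11 changed sign and 13 counts moved by over 1.5 times, and 0 members and 0 other pathway genes passed the adjusted threshold under any alternative. The filter and the variance trend alter only the test, so they cannot change the log2 difference of a probe set. The 1 member at unadjusted p under 0.05 (Ddah1) became 0 without the filter, after quantile normalisation, after cyclic loess, without the variance trend, with the title number block and with the mean over probe sets, and the count was 0 to 1 with 1 array left out. The 5 pathway genes became 8 with median centring and ranged from 3 (without S replicate 3 and without congenic replicate 3) to 7 with 1 array left out. The Ddah1 to Ddah2 contrast of 0.04 was -0.0471 after quantile normalisation, -0.0597 after cyclic loess and -0.0529 to 0.12 with 1 array left out. The Gucy1a1 to Gucy1b1 contrast of 0.30 was -0.0374 with the second probe sets. Differences near 0 changed sign for Nos1 (-0.0808 to 0.56 with 1 array left out, negative without congenic replicate 2), Gucy1a1 (-0.00897 with the mean over probe sets), the second probe set of Gucy1b1 (0.00343 with median centring, 0.0263 with the title number block, -0.30 to 0.0581 with 1 array left out) and Akt1 (0.0236 with the mean over probe sets). Where a value changed, the cause was not tested, except that leaving out arrays leaves fewer samples. No paired analysis was possible because the strains share no replicate numbers in the labels. Nos1, Pde5a and Prkg2 lay below the filter on low signals.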

Other observations

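Kcnma1, the pore subunit of a potassium channel opened by the cyclic GMP-dependent kinase, had discordant probe sets, noticed after the values were seen. One read 45.1, 30.9 and 40.0 in S and 8.26, 4.88 and 11.1 in congenic rats, so every congenic value lay under the floor of 12.3. Its log2 difference at that floor was -1.64 (limma adjusted p = 0.269). The probe set of highest signal read 73.2, 70.6 and 56.1 in S and 73.1, 49.4 and 83.1 in congenic rats, a log2 difference of 0.02. The third had 0.09, and all 3 lay below the filter on low signals.

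Npr3, the clearance receptor of natriuretic peptides, also lay below the filter and read 16.8, 12.8 and 17.1 in S and 30.0, 78.1 and 21.0 in congenic rats, a log2 difference of 1.25 (limma adjusted p = 0.635). The amino acid transporter pair Slc7a7 and Slc3a2, whose products form a heterodimer that carries arginine across the basolateral membrane, had log2 differences of 0.12 and 0.18 with congenic values all above S values in both (limma adjusted p = 0.607 and 0.493), whereas Slc7a1, a cationic amino acid transporter, had -0.29 with congenic values all below S values (limma adjusted p = 0.563). These genes were picked from the 13 whose groups did not overlap and support no direction for the list.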
